A study of Mus musculus with 31 samples.

Results

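Neurotransmitter receptor subunits are the proteins that read transmitter at the synapse, and their RNA was followed here in the left hippocampus of mice with a CD8 T cell encephalitis directed at neurons. The genes were chosen by symbol: the AMPA, kainate, delta and NMDA subunits of the ionotropic glutamate receptors, the GABA-A, GABA-B and glycine receptor subunits, and the metabotropic glutamate, acetylcholine, serotonin, dopamine and adrenergic receptors. Of the 15648 genes measured, 75 matched, and 74 of them encode receptor subunits. The remaining match, Grid2ip, encodes a protein that binds a delta receptor and was kept out of the counts. Class was set by family, which gave 17 excitatory, 17 inhibitory and 40 modulatory genes.

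All mice were adult OT-I/Rag1-/- animals (OT-I/Rag-/- in the labels), whose only mature T cells carry a transgenic receptor for a peptide of chicken ovalbumin (OVA). They were injected on both sides into dorsal CA1 with rAAV-hSyn-OVA-mCherry (rAAV-OVA), which makes neurons the source of the antigen and of mCherry, or with rAAV-hSyn-mCherry (rAAV-control), which gives mCherry alone. The hSyn promoter is neuronal, and the controls share the genotype, the injection and the reporter. RNA was taken at 2, 5, 8 or 28 days from 4 mice per group, except for 3 rAAV-control mice at 8 days, 31 mice in all. The labels place 2 mice of each group at 2 and 28 days in batch 2, and all others in batch 1.

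Fast excitation runs through AMPA receptors, which open on glutamate, and NMDA receptors, which add calcium entry and the induction of plasticity. GABA-A receptors are pentameric chloride channels, some at synapses and some, with the alpha5 or delta subunit, mostly outside them, where they carry tonic inhibition. Metabotropic glutamate, muscarinic and GABA-B receptors and most monoamine receptors act through G proteins and tune excitability and release, whereas Htr3a encodes a subunit of a serotonin-gated ion channel. In the hippocampus, pyramidal cells of CA1 and CA3 and granule cells of the dentate gyrus hold most of these receptors, with further sets on interneurons and glia.

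Expression is given in counts per 1000000 (CPM), scaled with edgeR's TMM factors. Log2FC stands for rAAV-OVA minus rAAV-control at the same day, from edgeR's quasi-likelihood test, fitted to all 31 mice with a term for each of the 8 groups and for 2 surrogate variables, and FDR is the Benjamini-Hochberg adjusted p over all 15648 genes. A gene is called, or said to have risen or fallen, where the FDR does not exceed 0.05 and the Log2FC is 0.66 or more in either direction. Because the surrogate variables adjust the Log2FC, it can differ from the ratio of the CPM values. Values of single mice are listed from the lowest to the highest in each group. Library totals ran from 19046977 to 57407902 counts, and over all mice the subunits' total counts were lowest for Chrnb3 and highest for Gria1, at 704353. Per kilobase of exon, Gria1 had the highest level in the 15 rAAV-control mice, with a median of 157 CPM per kb (range 120.7 to 211.5), and Gabbr1 and Grin1 followed at 111 and 106 CPM per kb, with ranges that overlapped each other. The 3 measured T cell genes (Cd8a, Lck and Trbc2) summed to 115 to 176 CPM in rAAV-OVA mice at 5 days, against 1.88 to 5.01 CPM in controls. Replicates are separate mice. Exonic bases of 18 subunits are shared with another annotated gene (for 14, on the opposite strand), and the 18 include Gabra5, Grin1, Grin2b, Chrm1, Drd5 and Adra1d. The strand setting of the libraries is not given in the sources used here, so reads of such pairs cannot be told apart.

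A single library stood apart and touches every result at 28 days. In rAAV-OVA mouse D844, of batch 2, the sum of 7 striatal marker genes was 2503 CPM, against 252 to 328 CPM in the other rAAV-OVA mice and 369.8 to 442.5 CPM in the rAAV-control mice of that day. Its interneuron marker sum was 1926 CPM, against 481 to 913 CPM in the other mice of that day. Its T cell sum was 35.8 CPM, against 309.5 to 722.8 CPM in the other rAAV-OVA mice, and its CA1 marker sum of 363 CPM was the lowest of the 31 mice. Of the 74 subunits, 20 had their highest value of all 31 mice in D844 and 4 their lowest. Calls at 28 days are therefore given with and without this mouse.

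At 2 days no subunit was called. The background was 0% of all genes in both directions, with and without the limit on Log2FC. The lowest FDR among the subunits was 0.397, and at an unadjusted p under 0.05 there were 3 higher subunits and 0 lower ones, against 715 and 713 of all genes. DESeq2 also called 0 subunits. The lowest of these p-values was that of Glrb, the beta subunit of glycine receptors. Its values were 120.5, 128, 132 and 149.5 CPM in the rAAV-control mice and 149, 165, 183 and 199 CPM in the rAAV-OVA mice. The groups overlapped, and the FDR was 0.397 at a Log2FC of 0.38. In all, 60 of the 74 subunits had a Log2FC above 0, with a median of 0.17 (all genes 0.01). The neuron marker sums overlapped (5962 to 7353 CPM in rAAV-OVA mice, 5836 to 6876 CPM in controls). Microglia sums were lower without overlap (359 to 450 against 463 to 651 CPM), with 0 of 6 genes called.

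At 5 days 4 subunits fell and 3 rose. For comparison, 4.67% of all genes were called lower and 9.56% higher, and the subunits' shares were 5.41% and 4.05%. No excitatory subunit passed both limits, while 2 of 17 inhibitory and 2 of 40 modulatory ones fell. By FDR alone 11 subunits were lower and 3 higher, against 14% and 15.2% of all genes. The share of subunits that fell was thus close to that of all genes, and the share that rose was below it.

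The strongest decrease at 5 days was in Gabra5, the alpha5 subunit of tonic GABA-A receptors of pyramidal cells. Its values were 171, 211, 239 and 275 CPM in the rAAV-control mice and 89.6, 101, 115 and 135 CPM in the rAAV-OVA mice (Log2FC -1.20, SE 0.22, FDR 0.000318). Every rAAV-OVA mouse lay below every control. Gabrd, the delta subunit of tonic receptors of dentate granule cells, stood at 24.5, 24.96, 25.7 and 32.6 CPM in the rAAV-control mice and 7.17, 9.81, 10.4 and 12.7 CPM in the rAAV-OVA mice (Log2FC -1.05, SE 0.28, FDR 0.00651). Again no rAAV-OVA mouse reached a control. Chrm3, a muscarinic receptor coupled to Gq, stood at 60.4, 60.7, 78.8 and 79.3 CPM in the rAAV-control mice and 32.8, 36.0, 40.1 and 46.9 CPM in the rAAV-OVA mice (Log2FC -0.93, SE 0.14, FDR 6.83e-05), also without overlap. For Adra1d, an alpha1 adrenergic receptor, the groups overlapped at 32.98, 35.4, 51.0 and 52.8 CPM in the rAAV-control mice and 19.97, 26.6, 27.1 and 36.0 CPM in the rAAV-OVA mice (Log2FC -0.83, SE 0.31, FDR 0.045), and without covariates its FDR was 0.1. Its call was also lost when any of D725, D786, D787, D723 or D724 was left out, with FDR from 0.0728 to 0.166.

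Markers moved alongside. The sum of 10 neuron markers ran from 5507 to 6125 CPM in rAAV-OVA mice and from 7021 to 8472 CPM in controls, and 2 of the 10 were lower by FDR alone, with a median Log2FC of -0.28. The CA1 list ran from 465 to 544.2 CPM against 742 to 821 CPM, with 2 of 6 genes called lower. The dentate granule list ran from 221 to 301 CPM against 311.5 to 458 CPM, with 2 of 6 called lower. Of the other lists, 4 of 6 oligodendrocyte genes (median Log2FC -0.87) and 6 of 8 choroid plexus genes were called lower, 3 of 6 microglia genes were called higher, and 0 of 10 neuron markers passed both limits. The choroid plexus sum was 3851 CPM in control D724, while the other 3 controls, at 42.7 to 146 CPM, overlapped the rAAV-OVA mice, at 46.6 to 138 CPM. The sums of further lists did not overlap between the groups at 5 days either. Those of interneurons (603.5 to 686 against 782 to 846 CPM), CA3 pyramidal cells (349.5 to 434 against 454 to 533 CPM), striatum (253 to 306 against 389 to 451 CPM) and neocortex (81.8 to 125 against 131 to 181 CPM) were lower in rAAV-OVA mice, and those of thalamus and habenula (103 to 125 against 76.4 to 90.2 CPM) and of T cells (115 to 176 against 1.88 to 5.01 CPM) were higher. Both limits were passed by 1 of 10 interneuron and 1 of 5 CA3 genes, which were lower, and by 1 of 7 striatum, 1 of 6 neocortex, 1 of 6 thalamus and habenula and 3 of 3 tested T cell genes, which were higher. In the striatum list the sum was lower while the median Log2FC was 0.22. The part of these lists in the subunits' differences was not tested. In bulk tissue, fewer cells of a type and less RNA per cell cannot be told apart.

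Further glutamate and modulatory receptors were lower by FDR alone. Gria1, the GluA1 subunit of AMPA receptors, stood at 817, 837, 1111 and 1224 CPM in the rAAV-control mice and 650.2, 662, 737 and 762 CPM in the rAAV-OVA mice (Log2FC -0.52, SE 0.18, FDR 0.0352). Grin1, the obligatory NMDA subunit, stood at 447, 482.1, 525 and 564 CPM in the rAAV-control mice and 344, 347, 348 and 376 CPM in the rAAV-OVA mice (Log2FC -0.43, SE 0.14, FDR 0.0239). Neither gene overlapped between the groups. Chrm1, the main muscarinic receptor of pyramidal cells, stood at 232, 234, 291 and 314 CPM in the rAAV-control mice and 166, 171, 184 and 205 CPM in the rAAV-OVA mice (Log2FC -0.60, SE 0.19, FDR 0.0171). Grm3, a metabotropic receptor found largely on astrocytes in the adult, stood at 43.5, 45.7, 49.0 and 50.8 CPM in the rAAV-control mice and 24.3, 30.9, 32.6 and 33.2 CPM in the rAAV-OVA mice (Log2FC -0.47, SE 0.15, FDR 0.0189). The astrocyte marker sum ran from 3720 to 4817 CPM in rAAV-OVA mice and from 2405 to 3537 CPM in controls, although 2 of its 7 genes were called lower. Grik5 and Grin2c also had an FDR under the limit, at Log2FC -0.43 and -0.52.

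The 3 subunits called higher at 5 days were not called in a fit of all mice without covariates. Grm8, a presynaptic metabotropic receptor, stood at 2.42, 3.07, 4.07 and 5.90 CPM in the rAAV-control mice and 3.57, 4.65, 5.44 and 5.76 CPM in the rAAV-OVA mice, with overlap (Log2FC 1.06, SE 0.29, FDR 0.00751), and its Log2FC without covariates was 0.33. Drd1, the D1 dopamine receptor, stood at 3.03, 3.89, 4.88 and 5.38 CPM in the rAAV-control mice and 3.48, 6.51, 7.23 and 16.8 CPM in the rAAV-OVA mice (Log2FC 2.09, SE 0.68, FDR 0.0226). The top value was mouse D725, and without it the Log2FC was 1.36 (FDR 0.114). Without covariates it was 0.98 (FDR 0.35), and in that fit with mouse D844 of day 28 left out, 1.02 (FDR 0.0258). Htr7, a serotonin receptor coupled to Gs, stood at 5.88, 7.09, 7.16 and 7.92 CPM in the rAAV-control mice and 8.38, 9.20, 9.23 and 11.8 CPM in the rAAV-OVA mice (Log2FC 0.83, SE 0.22, FDR 0.00622), and here the groups did not overlap, with a Log2FC of 0.46 without covariates (FDR 0.224). That fit called 5 subunits lower and 0 higher, against 5.55% and 11.9% of all genes, among them Gabra5, Gabrd and Chrm3.

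A count that needs no model gave a wider picture at 5 days. In 28 of 74 subunits (37.8%) every rAAV-OVA mouse lay below every control, against 19.6% of all genes, and in Htr7 and Adra2c, 2 of 74, every one lay above, against 21%. The 28 held 9 of 17 excitatory, 9 of 17 inhibitory and 10 of 40 modulatory genes.

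**Figure D1:**
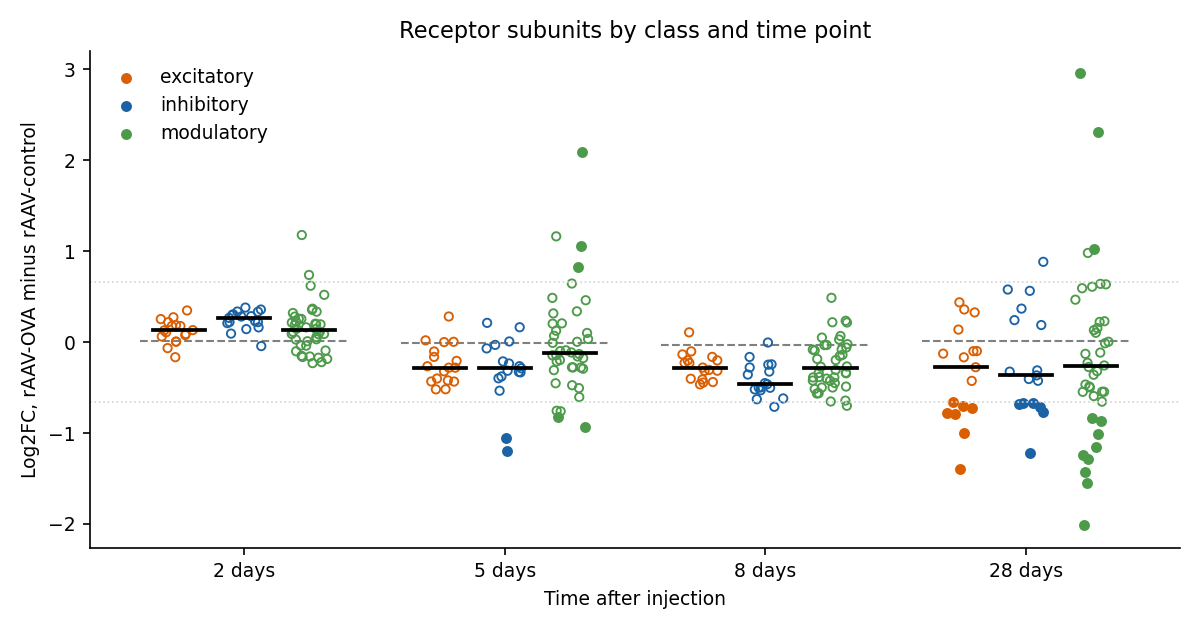
Log2FC (rAAV-OVA minus rAAV-control) of each of the 74 receptor subunits by class, for mice taken 2, 5, 8 or 28 days after the injection. Filled points passed both limits, black bars are class medians, grey dashed lines the median of all genes and dotted lines the Log2FC limit. Class medians lay above 0 at 2 days and below 0 at the later days, and filled points below 0 were most numerous at 28 days, where 22 fell.

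At 8 days no subunit passed both limits, and 0.588% of all genes were called lower and 9.36% higher. By FDR alone 5 subunits were lower and 0 higher, against 4.44% and 13.9% of all genes. DESeq2 also called 0 at both limits, and at an unadjusted p under 0.05 there were 20 lower and 0 higher subunits, against 2183 and 3185 of all genes. Among those lower by FDR alone were Grin1, Glrb and Chrm3. Chrm3 stood at 68.9, 70.1 and 74.0 CPM in the rAAV-control mice and 36.5, 48.0, 50.05 and 51.9 CPM in the rAAV-OVA mice (Log2FC -0.52, SE 0.15, FDR 0.0175), and Grin1 at 465, 480.0 and 579.8 CPM in the rAAV-control mice and 331, 331, 357 and 366 CPM in the rAAV-OVA mice (Log2FC -0.44, SE 0.15, FDR 0.0394). Neither gene overlapped between groups. Glrb stood at 120.4, 164 and 170.2 CPM in the rAAV-control mice and 95.1, 102, 103 and 127 CPM in the rAAV-OVA mice (Log2FC -0.52, SE 0.14, FDR 0.0129). Its lowest control, mouse D720, fell inside the range of the rAAV-OVA mice.

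That rAAV-control mouse carried a T cell sum of 39.6 CPM, against 4.14 and 4.97 CPM in the other controls of the day, and a microglia sum of 864 CPM against 289 and 408 CPM. Without D720, 2 subunits were called lower and 0 higher at 8 days, against 0.882% and 9.87% of all genes in that fit. The neuron sum ran from 4723 to 6515 CPM in rAAV-OVA mice and from 5908 to 8219 CPM in controls. Of the 74 subunits, 66 had a Log2FC below 0 at 8 days, with a median of -0.32 against -0.03 over all genes. All 17 inhibitory subunits were among the 66. In 20 of 74 (27%) every rAAV-OVA mouse lay below every control, against 11.9% of all genes, and in 1 of 74 every one lay above, against 14.4%. Of the marker lists, 1 of 5 CA3 and 2 of 6 dentate granule genes were called lower. Called higher were 2 of 6 microglia, 3 of 3 tested T cell, 1 of 7 striatum and 1 of 6 thalamus and habenula genes. The part of these lists in the subunits' differences at 8 days was not tested.

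At 28 days 22 subunits fell and 3 rose. Among all genes 4.86% were called lower and 12.7% higher, so the share of subunits that fell, 29.7%, was above the background. All 3 classes took part: 7 of 17 excitatory, 6 of 17 inhibitory and 9 of 40 modulatory genes fell, and the 3 that rose were modulatory. By FDR alone 28 were lower and 6 higher, against 14.3% and 19.2% of all genes. With D844 left out and the surrogate variables estimated again, 13 fell and 0 rose, against 2.41% and 12.3% of all genes, and 11 of the 13 were among the 22. Without covariates the counts were 23 and 4, against 5.91% and 15.8% of all genes. With D844 left out of that fit, 29 fell and 1 rose, against 6.72% and 17.8% of all genes, and 18 of the 29 were among the 22. More subunits fell than rose in each of these 4 fits, while which ones were called differed. The order turned when libraries were scaled to neuron markers, as described further on. Leaving out any single mouse of the 31 gave between 11 and 27 that fell, the lowest without BEC-B542, an rAAV-OVA mouse of day 2, where 2.65% of all genes were called lower.

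In 25 of 74 subunits (33.8%) every rAAV-OVA mouse lay below every control, against 14% of all genes, and in 1 of 74 above, against 15%. With 3 rAAV-OVA mice left after D844 was set aside, 43 of 74 (58.1%) lay fully below, against 24.7% of all genes, and again 1 of 74 above, against 24%. The 43 held 10 of 17 excitatory, 12 of 17 inhibitory and 21 of 40 modulatory genes.

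Among AMPA and NMDA receptors, the subunits that fell were Gria1, Gria2, Gria3, Grin1, Grin2a and Grin2b. Gria1 stood at 909, 936, 962 and 1047 CPM in the rAAV-control mice and 342, 535, 645 and 813 CPM in the rAAV-OVA mice (Log2FC -0.78, SE 0.18, FDR 0.00285). Gria2, whose edited form keeps AMPA receptors closed to calcium, stood at 469, 479.02, 611 and 621 CPM in the rAAV-control mice and 196, 218, 414 and 442 CPM in the rAAV-OVA mice (Log2FC -0.73, SE 0.20, FDR 0.00716). Neither gene overlapped between the groups, and mouse D845 had the lowest value of both. Without D844 both were still called (Log2FC -0.71, SE 0.23, FDR 0.0249 for Gria1, Log2FC -0.71, SE 0.22, FDR 0.0225 for Gria2). They kept an FDR under the limit but not their size without D845 (Log2FC -0.56 for Gria1 and -0.65 for Gria2) or control D851 (-0.63 and -0.54), and Gria2 also without D661 (-0.59). Gria3, another AMPA subunit, kept an FDR under the limit but not its size without D844 (Log2FC -0.61, SE 0.19, FDR 0.0236, from -0.79 with all mice). Grin1 stood at 453, 461, 464 and 485 CPM in the rAAV-control mice and 184, 239, 361 and 363 CPM in the rAAV-OVA mice (Log2FC -0.66, SE 0.14, FDR 0.00146) and sat at the Log2FC limit, with Log2FC -0.63, SE 0.17, FDR 0.0109 without D844. Grin2a, the NMDA subunit of mature synapses, fell most of the excitatory genes. Its values were 395, 408, 422 and 441 CPM in the rAAV-control mice and 100.2, 129, 141 and 335 CPM in the rAAV-OVA mice (Log2FC -1.40, SE 0.26, FDR 0.000562). Mice D845, D844 and D661 were at or under 141 CPM, and D667 lay nearer to the controls. Grin2b, the NMDA subunit that dominates early in development, stood at 686, 717, 724.9 and 732 CPM in the rAAV-control mice and 223, 271, 429 and 579.5 CPM in the rAAV-OVA mice (Log2FC -0.996, SE 0.25, FDR 0.00401). Without D844, Grin2a (Log2FC -0.96, SE 0.29, FDR 0.0178) and Grin2b (Log2FC -0.82, SE 0.29, FDR 0.0417) were still called.

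Of the other excitatory subunits 1 was called. Gria4, Grin2c, Grin2d and Grin3a were not called, with Log2FC from -0.13 (Grin2c) to 0.36 (Grin2d), and none of the 4 was called without D844. Grik4, a high-affinity kainate subunit of CA3, was the only kainate subunit called, at 36.8, 42.1, 46.1 and 56.5 CPM in the rAAV-control mice and 18.1, 21.7, 31.9 and 48.8 CPM in the rAAV-OVA mice (Log2FC -0.70, SE 0.23, FDR 0.0237). Its groups overlapped, and without D844 it was not called (Log2FC -0.27, SE 0.26, FDR 0.485). Grik5 was lower by FDR alone with all mice (Log2FC -0.43, SE 0.14, FDR 0.0226), and its groups did not overlap. Grik3, another kainate subunit, was higher by FDR alone (Log2FC 0.44, SE 0.16, FDR 0.0384). Its values were 47.5, 59.0, 61.8 and 63.3 CPM in the rAAV-control mice and 31.4, 39.6, 51.4 and 127 CPM in the rAAV-OVA mice. The value of 127 CPM was D844, the groups overlapped, and without this mouse Grik3 did not pass the FDR limit (Log2FC 0.36, SE 0.24, FDR 0.29).

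**Figure D2:**
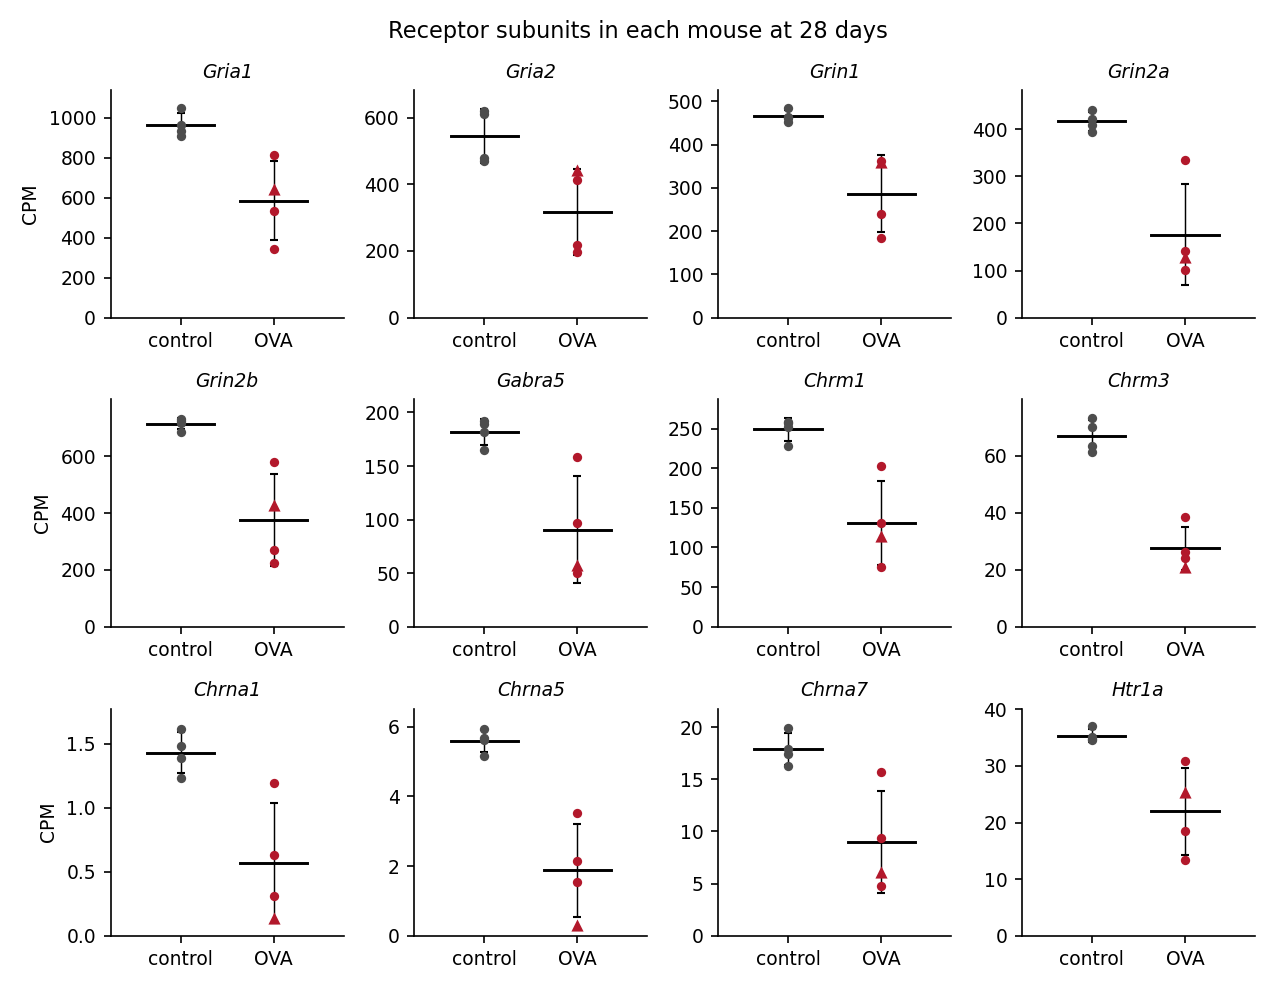
CPM of 12 receptor subunits in each of the 4 rAAV-control and 4 rAAV-OVA mice at 28 days. Points are mice, the triangle is mouse D844, and bars show mean ± SD. All 12 are among the 25 of 74 subunits in which every rAAV-OVA mouse lies below every control, so the lack of overlap follows from the choice of panels. Called subunits whose groups overlapped, such as Adra1d, Drd5, Grik4 and Htr3a, are not drawn. In the 12 panels the rAAV-OVA mice spread more widely.

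The inhibitory subunits that fell included Gabra5, Gabrb2, a beta subunit of GABA-A receptors, and Gabbr2, the subunit through which GABA-B receptors signal. Gabrb2 (Log2FC -0.55, SE 0.22, FDR 0.0721) and Gabbr2 (Log2FC -0.42, SE 0.19, FDR 0.114) were not called without D844. Gabra5 stood at 165, 182, 189 and 192 CPM in the rAAV-control mice and 49.9, 57.6, 96.5 and 159 CPM in the rAAV-OVA mice (Log2FC -1.22, SE 0.23, FDR 0.000551). The groups did not overlap, with D667 just under the lowest control, and Gabra5 was called without D844 (Log2FC -0.89, SE 0.28, FDR 0.0231). Gabra2, the alpha2 subunit found at the axon initial segment, stood at 190.0, 221, 233 and 238 CPM in the rAAV-control mice and 105, 129, 192 and 199 CPM in the rAAV-OVA mice with overlap, and was not called with D844 (Log2FC -0.41, SE 0.18, FDR 0.0771) or without it. Gabbr1, the GABA-binding subunit of the GABA-B receptor, stood at 724.04, 731, 757 and 777 CPM in the rAAV-control mice and 371, 459, 609 and 836 CPM in the rAAV-OVA mice (Log2FC -0.31, SE 0.14, FDR 0.0926). Its highest value was D844, and without this mouse it passed FDR alone (Log2FC -0.49, SE 0.16, FDR 0.0256).

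Gabrd differed between the time points until D844 was set aside. At 28 days it stood at 17.9, 23.98, 24.8 and 25.9 CPM in the rAAV-control mice and 8.84, 14.4, 16.2 and 50.7 CPM in the rAAV-OVA mice (Log2FC 0.19, SE 0.27, FDR 0.613), and the value of 50.7 CPM was D844. The other 3 rAAV-OVA mice lay below all controls. Without D844 the Log2FC was -0.51 with an FDR of 0.176. The test of 28 minus 5 days gave a difference of 1.24 (SE 0.37, FDR 0.0372) with D844, and without it no subunit was called in that difference.

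Acetylcholine receptors held the largest decreases. Chrm3 had the lowest FDR of all subunits at 61.2, 63.5, 70.0 and 73.3 CPM in the rAAV-control mice and 20.9, 24.2, 26.1 and 38.5 CPM in the rAAV-OVA mice (Log2FC -1.43, SE 0.15, FDR 2.37e-06). All 4 rAAV-OVA mice lay far below the controls, and the call held without D844 (Log2FC -1.12, SE 0.17, FDR 0.000116). Chrm1 stood at 228, 253, 258 and 259 CPM in the rAAV-control mice and 75.1, 115, 131 and 203 CPM in the rAAV-OVA mice (Log2FC -1.01, SE 0.19, FDR 0.000608), also without overlap, and was called without D844 (Log2FC -0.73, SE 0.23, FDR 0.0224). Chrna5, an accessory nicotinic subunit, stood at 5.17, 5.62, 5.67 and 5.93 CPM in the rAAV-control mice and 0.310, 1.54, 2.13 and 3.52 CPM in the rAAV-OVA mice (Log2FC -2.01, SE 0.34, FDR 0.000264). D844 had the lowest value, and without it the Log2FC was -1.21 (SE 0.24, FDR 0.000874). Chrna7, the subunit of the homomeric alpha7 nicotinic receptor, stood at 16.3, 17.5, 17.9 and 19.97 CPM in the rAAV-control mice and 4.73, 6.10, 9.37 and 15.7 CPM in the rAAV-OVA mice (Log2FC -1.16, SE 0.28, FDR 0.00374). Chrna1, best known from muscle, was at 1.24, 1.39, 1.48 and 1.62 CPM in the rAAV-control mice and 0.138, 0.308, 0.630 and 1.20 CPM in the rAAV-OVA mice (Log2FC -1.55, SE 0.39, FDR 0.00466). Neither Chrna7 nor Chrna1 overlapped between groups, and neither was called without D844 (Log2FC -0.74, SE 0.32, FDR 0.096 for Chrna7, Log2FC -0.76, SE 0.36, FDR 0.132 for Chrna1). Chrm2, Chrm4 and Chrm5 were not called, at Log2FC 0.23, 0.15 and -0.49, nor were they without D844.

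Among monoamine receptors, Drd5, Adra1d, Htr3a and Htr4 fell. Without D844 only Htr4, a serotonin receptor coupled to Gs, was still called of these 4 (Log2FC -0.98, SE 0.33, FDR 0.0344, from -0.87 with all mice), and Htr3a, a subunit of the serotonin-gated channel, was not (Log2FC -0.24, SE 0.31, FDR 0.619). The call of Htr4 was lost when another mouse was left out, D845 (Log2FC -0.49, SE 0.22, FDR 0.0949) or control D851 (Log2FC -0.76, SE 0.30, FDR 0.0655). Drd5, the D5 dopamine receptor, stood at 13.9, 17.7, 17.8 and 19.1 CPM in the rAAV-control mice and 3.98, 5.76, 8.40 and 15.1 CPM in the rAAV-OVA mice (Log2FC -1.29, SE 0.30, FDR 0.00243), and Adra1d at 34.9, 35.1, 35.3 and 38.4 CPM in the rAAV-control mice and 8.05, 8.28, 20.7 and 37.3 CPM in the rAAV-OVA mice (Log2FC -1.24, SE 0.33, FDR 0.00603). In both genes D667 lay within or above part of the control range, so the groups overlapped, and neither was called without D844 (Log2FC -0.95, SE 0.36, FDR 0.0594 for Drd5, Log2FC -0.64, SE 0.35, FDR 0.187 for Adra1d). Htr1a, the serotonin autoreceptor that is also abundant in hippocampal pyramidal cells, passed FDR alone, at 34.5, 34.7, 35.1 and 37.1 CPM in the rAAV-control mice and 13.4, 18.4, 25.3 and 30.9 CPM in the rAAV-OVA mice (Log2FC -0.55, SE 0.17, FDR 0.0173). The groups did not overlap, but without D844 its FDR was 0.229.

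Drd2, Drd1 and Adra2a were the 3 subunits called higher, and none of them was called without D844. Drd1 stood at 2.73, 3.62, 4.43 and 4.83 CPM in the rAAV-control mice and 1.92, 2.08, 2.84 and 92.5 CPM in the rAAV-OVA mice (Log2FC 2.31, SE 0.64, FDR 0.00822). Drd2, the D2 dopamine receptor, stood at 2.04, 2.09, 2.53 and 4.07 CPM in the rAAV-control mice and 1.57, 2.11, 5.17 and 99.9 CPM in the rAAV-OVA mice (Log2FC 2.96, SE 0.70, FDR 0.00291). In both, the single high value was D844, and the other rAAV-OVA mice ranged from 1.57 to 5.17 CPM over both genes. Adra2a, an alpha2 adrenergic receptor, stood at 10.6, 10.99, 12.95 and 15.5 CPM in the rAAV-control mice and 9.72, 13.4, 23.1 and 40.9 CPM in the rAAV-OVA mice (Log2FC 1.03, SE 0.22, FDR 0.00135). Its 2 highest values were D844 and D845, both above every control, and the striatal marker sum of D845 was 252 CPM, the lowest of the 31 mice. Without D845, Adra2a was higher by FDR alone (Log2FC 0.54, FDR 0.01). Their values without D844 were as follows (Log2FC -0.13, SE 0.48, FDR 0.874 for Drd1, Log2FC -0.11, SE 0.47, FDR 0.89 for Drd2, Log2FC 0.52, SE 0.27, FDR 0.167 for Adra2a). Drd1 and Drd2 are the defining receptors of striatal projection neurons, and the striatal marker sum of D844 is given above. In batch 1 alone the Log2FC was -1.06 for Drd1, -0.71 for Drd2 and -0.28 for Adra2a, and in batch 2 alone, which held D844, it was 3.72, 4.51 and 1.55, none of them called.

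**Figure D3:**
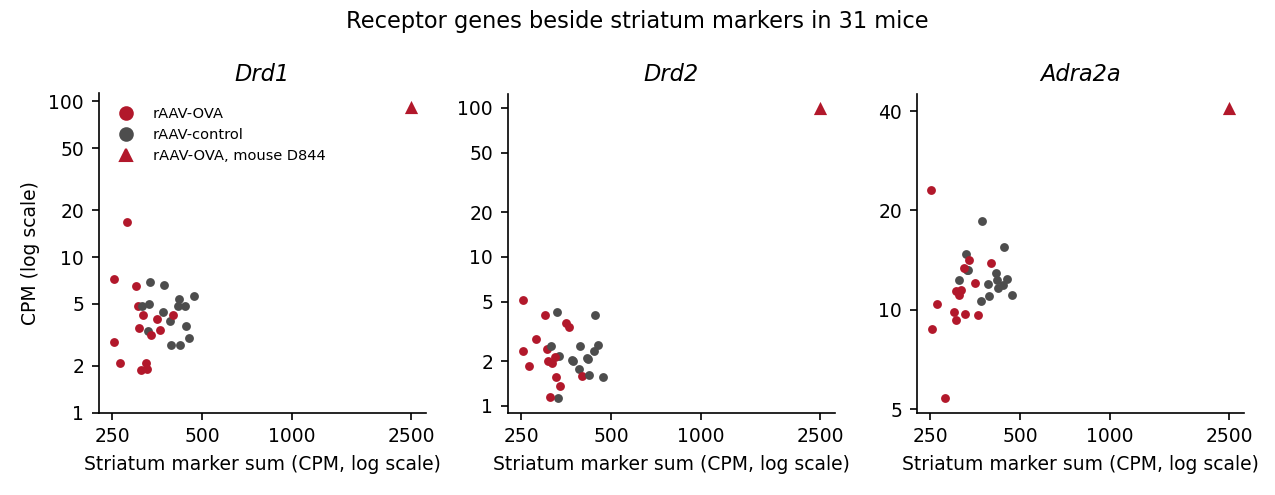
CPM of Drd1, Drd2 and Adra2a in each of the 31 mice against the summed CPM of 7 striatal marker genes, both axes logarithmic. Mouse D844 (triangle) stands at a striatal sum of 2503 CPM with 92.5 CPM of Drd1 and 99.9 CPM of Drd2, and the other 30 mice lie between 252 and 469.8 CPM of the sum.

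Metabotropic glutamate receptors were not called at 28 days in either direction at both limits. Grm5, which couples to Gq, stood at 236, 258, 264 and 264 CPM in the rAAV-control mice and 110.2, 116, 234 and 316 CPM in the rAAV-OVA mice (Log2FC -0.32, SE 0.21, FDR 0.255). The groups overlapped, and D844 was the highest of all 8 mice. Without it Grm5 was not called (Log2FC -0.51, SE 0.24, FDR 0.126). Grm3 stood at 44.5, 48.0, 51.6 and 59.7 CPM in the rAAV-control mice and 30.8, 42.7, 44.5 and 61.9 CPM in the rAAV-OVA mice (Log2FC -0.01, SE 0.15, FDR 0.957). The value of 61.9 CPM was D844, and the other 3 rAAV-OVA mice lay below all controls, 1 of them by less than the rounding. Without it Grm3 was not called (Log2FC -0.13, SE 0.19, FDR 0.664). The difference between 28 and 5 days in Grm3 was not called (FDR 0.136). By FDR alone Grm2 and Grm7 were lower (Log2FC -0.655 and -0.55) and Grm4 higher (0.635). Grm4, a presynaptic receptor, stood at 10.5, 20.8, 22.3 and 26.7 CPM in the rAAV-control mice and 8.5, 9.86, 17.4 and 55.5 CPM in the rAAV-OVA mice. The value of 55.5 CPM was D844, and the other 3 rAAV-OVA mice lay inside or below the control range. Without D844 none of the 3 passed the FDR limit, with Log2FC of -0.28 for Grm2, -0.42 for Grm7 and 0.32 for Grm4.

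Htr2c, a serotonin receptor of the choroid plexus as well as of neurons, is read beside the choroid plexus. At 28 days it stood at 22.6, 30.4, 54.0 and 67.1 CPM in the rAAV-control mice and 13.7, 31.003, 62.6 and 70.6 CPM in the rAAV-OVA mice (Log2FC 0.22, SE 0.51, FDR 0.761), and without D844 it was not called either (Log2FC -0.50, SE 0.64, FDR 0.607). The sum of 8 choroid plexus markers ran from 37.1 to 5355 CPM over the 31 mice. In the 5 mice with a sum of at least 3000 CPM, 2 rAAV-OVA and 3 rAAV-control, Htr2c ran from 54.01 to 67.1 CPM, and in 25 other mice from 10.04 to 42.3 CPM. The limit of 3000 CPM was not planned. Mice with sums from 1439 to 2071 CPM had 18.6 to 32.9 CPM of Htr2c, and control D696, with a sum of 67.7 CPM, had 42.3 CPM. D844, with a low choroid sum of 373 CPM, had 70.6 CPM.

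**Figure D4:**
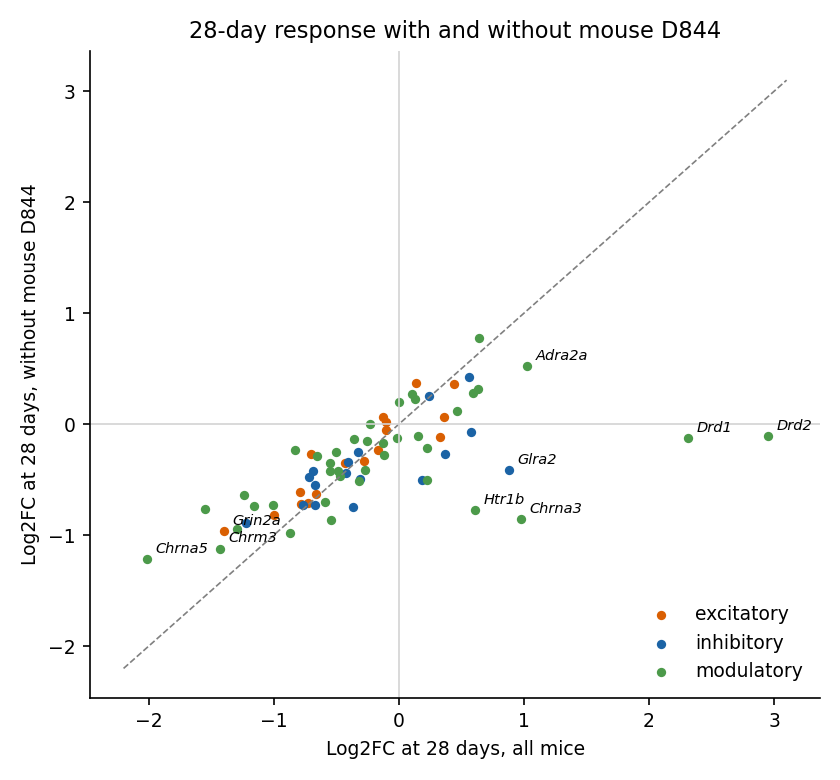
Log2FC of the 74 subunits at 28 days with all mice (horizontal) and without mouse D844 (vertical), coloured by class, with the line of equality. Drd1, Drd2, Htr1b, Glra2 and Chrna3 lie above 0 with all mice and below 0 without D844, while Chrna5, Chrm3 and Grin2a lie below 0 in both.

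Neuron markers were lower at 28 days too. Their sum ran from 3156 to 6053 CPM in rAAV-OVA mice and from 7004 to 7934 CPM in controls, with 4 of 10 genes called lower, 7 of 10 lower by FDR alone and a median Log2FC of -0.59. The median over the 74 subunits was -0.32 (all genes 0.01). The CA1 list had 4 of 6 genes called lower, the CA3 list 3 of 5 and the dentate granule list 3 of 6. In the CA3 list 1 gene, Coch, was called higher (Log2FC 1.41, SE 0.52, FDR 0.038), and 0 were without D844. Without D844, 1 of 10 neuron, 2 of 6 CA1, 2 of 5 CA3 and 2 of 6 dentate granule genes were called lower. Astrocyte sums ran from 2572 to 5064 CPM against 1870 to 2321 CPM. Microglia sums ran from 347 to 1044 CPM against 261 to 310.0 CPM, T cell sums from 35.8 to 722.8 CPM against 1.51 to 2.54 CPM and endothelium sums from 177 to 264 CPM against 125 to 151 CPM. In these lists 5 of 6 microglia, 3 of 3 tested T cell and 2 of 4 endothelium genes were called higher, and the counts were equal without D844. Neocortex sums ran from 91.96 to 119 CPM against 127 to 211 CPM, with 1 of 6 genes called lower and 1 higher, and 0 without D844. With all mice 2 of 10 interneuron and 2 of 6 thalamus and habenula genes were called higher, and 0 of either list without D844. In the striatum list 4 of 7 genes were called higher with all mice, and 1, Adora2a, without D844. The part of these lists in the subunits' decrease was not tested. When libraries were scaled so that the geometric mean of the neuron markers was level in all mice, the median Log2FC of all genes rose to 0.60, and 8 subunits were called lower and 22 higher, against 0.799% and 42.1% of all genes. The 8 were Adra1d, Chrm3, Chrna1, Chrna5, Chrna7, Drd5, Gabra5 and Grin2a, all of them among the 22 that fell. This scaling was run only with D844 included. In the fit without D844, on the usual scale, Chrm3, Chrna5, Gabra5 and Grin2a were called, and Adra1d, Chrna1, Chrna7 and Drd5 were not. On that scale the Log2FC of Gria1 was -0.28, of Gria2 -0.21 and of Grin1 -0.14, and none of these 3 was called.

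The response was also compared between days. For 28 minus 5 days, 3 subunits were called lower and 2 higher, against 2.32% and 3.86% of all genes. Lower were Drd5 (-1.50), Grm2 (-0.76) and Htr5a (-0.67), and higher were Adra2a and Gabrd (1.24 each). None of the 5 was called without D844, and without covariates 1 lower and 0 higher subunits were called. For 8 minus 5 and 28 minus 8 days 0 subunits were called by edgeR. Of all 15648 genes it called 19 lower and 9 higher for 8 minus 5 days, and 0 in either direction for 28 minus 8 days. DESeq2 called 2 subunits lower for 28 minus 8 days, and its share of all genes is not given here. Gabra5, Chrm3 and Adra1d fell at both 5 and 28 days. The Adra1d groups overlapped at both days, and its call was lost at 5 days without covariates and at 28 days without D844.

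**Figure D5:**
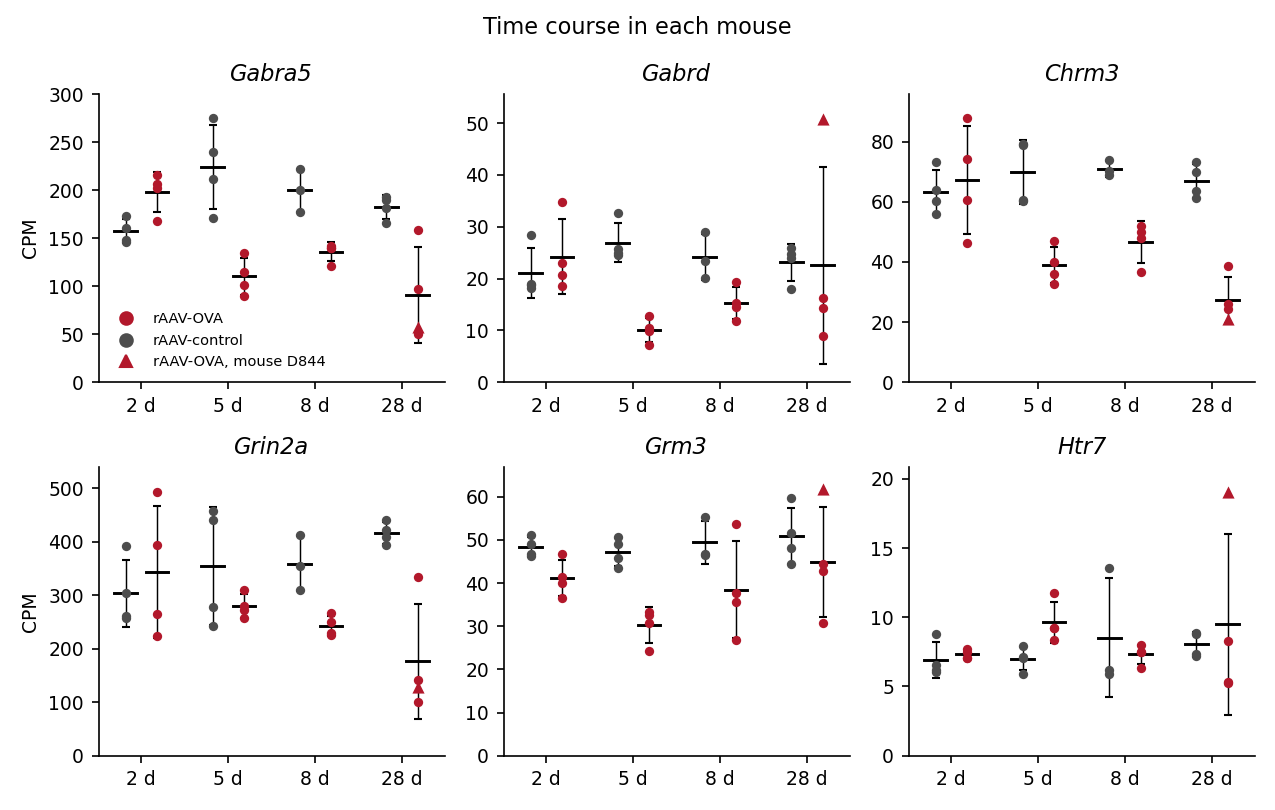
CPM of Gabra5, Gabrd, Chrm3, Grin2a, Grm3 and Htr7 in each mouse, by day. Points are mice, the triangle is mouse D844, and bars show mean ± SD (4 mice per group, 3 rAAV-control mice at 8 days). The Chrm3 groups do not overlap at 5, 8 and 28 days, and in Gabrd, Grm3 and Htr7 the highest value at 28 days is mouse D844.

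Other genes of the same synapses were read from lists, beside 4.86% of all genes called lower and 12.7% called higher at 28 days. Of 14 auxiliary subunits of AMPA and kainate receptors, 3 fell and 1 rose at 28 days. Shisa6 (Log2FC -1.18, SE 0.24, FDR 0.000976), Cacng8 (-0.998) and Shisa7 (-0.68) fell, and Cacng4 (0.83) rose. Cacng8 encodes the gamma-8 protein that partners hippocampal AMPA receptors. Of 18 excitatory scaffold genes, 5 fell and 0 rose: Homer3, Dlgap1 (-0.85), Shank1 (-0.77), Homer2 (-0.73) and Dlgap2 (-0.72). Of 11 inhibitory scaffold and GABA-B auxiliary genes, 1 fell, Kctd16 (-1.005), while Gphn, which encodes the scaffold gephyrin, had a Log2FC of -0.25. Of 15 genes of transmitter synthesis and transport, 3 fell and 1 rose. Slc17a7, the vesicular glutamate transporter of pyramidal cells, fell most (-1.26, SE 0.32, FDR 0.00428), and Slc17a8 fell too (-0.72). Slc32a1, the vesicular GABA transporter, rose (0.81), and the interneuron marker sum was highest in D844. Without D844, where 2.41% and 12.3% of all genes were called lower and higher, the 4 lists held 2, 2, 2 and 1 genes that fell, Cacng8, Shisa6, Homer2, Dlgap2, Kctd16 and Slc17a8 among them, and 0, 0, 0 and 1 that rose (Slc1a3, a glutamate transporter of astrocytes). Slc17a7 and Slc32a1 were not called without it. At 5 days, beside 4.67% and 9.56% of all genes, the same 4 lists had 1, 1, 0 and 1 genes that fell, which were Cnih2 (-0.87), Homer2 (-0.67) and Glul (-0.96), and 1, 1, 1 and 0 that rose, which were Gsg1l (0.95), Homer1 (0.81) and Insyn2a (0.71).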

How the data were processed

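RNA of the left hippocampus of 31 mice was read by bulk mRNA-seq. The authors trimmed reads with fastp, estimated counts with Salmon 1.8.0 on GENCODE transcripts, summed them to genes, filtered genes on 15 counts or more in 15 or more mice, and used DESeq2 1.36.0 with surrogate variables. The deposited values are estimated counts in whole numbers, without normalization. Both deposited tables were alike, with 0 cells that differ. Of 15648 genes, 824 had no symbol. Totals per mouse ran from 19046977 to 57407902 counts (median 27024978), and no pair of libraries within a group was a duplicate. Pairs from different groups were not compared.

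Groups came from the labels. The test was edgeR 4.0.16 (quasi-likelihood, robust, TMM, R 4.3.3) on 8 groups and 2 surrogate variables from sva 3.50.0, with calls where the FDR did not exceed 0.05 and the Log2FC was 0.66 or more in either direction. It was tested on simulated data. CPM used TMM factors. Alternatives were DESeq2 1.42.0, its size factors, no covariates, batch as covariate, a stricter filter, scaling to neuron markers, single days, single batches and each mouse left out. Values per mouse are given for the called subunits (up to 8 per direction and day, ranked by absolute Log2FC) and for main receptors of hippocampal cells, some of which are not reported here. Other subunits are given by counts and ranges, except Glrb, Grm4 and Grik3, added after their values were seen. The members and lists were chosen with earlier results of these data known. Exon lengths came from GENCODE M21, another build than the authors', so no coordinates are given.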

Additional observations from a re-analysis of the deposited data

Results flagged for a closer look

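Values of single mice were compared within groups of 4. Over 79 groups of member values, 5 held a mouse far from the others, and chance gives about 1 in 20. At 28 days mouse D844 stood apart among rAAV-OVA mice with 92.5 CPM of Drd1, 99.9 CPM of Drd2 and a striatal marker sum of 2503 CPM. Among rAAV-control mice of that day D851 was highest in Adra1d at 38.4 CPM. At 5 days D787 was highest of the rAAV-OVA mice in Grin1 at 376 CPM, and D745 was highest of the rAAV-control mice in Gabrd at 32.6 CPM.

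The response at 28 days differed from that at 5 days in 5 subunits by edgeR's test of the difference. The difference in Log2FC was 1.24 for Gabrd (FDR 0.0372), 1.24 for Adra2a (FDR 0.0125), -1.50 for Drd5 (FDR 0.0171), -0.76 for Grm2 (FDR 0.0464) and -0.67 for Htr5a (FDR 0.0269). None of the 5 was called without D844.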

How the results depend on the processing

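At 2 days 0 subunits were called under every alternative run. At 5 days the counts that fell and rose were 4 and 3. By FDR alone 11 were lower, and without covariates, with batch as covariate or with the mice of the day alone 0 rose. Leaving out each mouse in turn gave 3 to 6 that fell and 2 to 4 that rose. At 8 days 0 fell, but 2 did without covariates and with batch as covariate, and 5 were lower by FDR alone. Leaving out each mouse gave 0 to 5 lower and 0 to 1 higher at 8 days: 5 lower without BEC-B542, 3 without D845, 2 without D701, D720 or D844, 1 without D745, D684, D740, D696 or D705, and 1 higher without D684 or D845.

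At 28 days 22 fell and 3 rose. The counts were 8 and 22 with neuron marker scaling, 6 and 0 with the mice of the day alone, 8 and 0 in batch 1 alone and 10 and 0 in batch 2 alone, while by FDR alone 6 were higher. The shares of all genes called with the mice of the day alone and in single batches are not given, so these counts lack a background. Without covariates and without D844, an alternative chosen after seeing the data, 1 rose. Leaving out each mouse gave 11 to 27 that fell and 0 to 7 that rose. Fewer fell without BEC-B542 (11), D845 (12), D844 or D851 (13) and D786, D787, D703 or D661 (14). The count that rose was 0 without BEC-B542 or D844, 1 without D845, 5 without D725, D786, D787, D703 or D667, 6 without D683 and 7 without D661.

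For 28 minus 5 days, 3 and 2 subunits were called lower and higher, against 6 and 5 by DESeq2, 1 and 0 without covariates and with batch as covariate, and 0 and 0 without D844. Without covariates and without D844 they were 1 and 0, and neuron scaling gave 7 higher. For 28 minus 8 days DESeq2 called 2 lower. The shares of all genes called under these alternatives are not given.

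Direction reversed in batch 1 alone for Drd1 (-1.06), Drd2 (-0.71) and Adra2a (-0.28), without D844 for Drd1 (-0.13) and Drd2 (-0.11), and without covariates and D844 for Drd1 (-0.72). Leaving out each mouse of day 28 gave Log2FC from -0.13 to 3.09 for Drd1 and from -0.11 to 3.70 for Drd2, the highest without D661. Fewer mice or another scale define these alternatives, and beyond that the cause was not tested. The low counts of Chrna1 (4 to 87 per mouse) limit its precision. The counts without D844 for the synapse and marker lists, for the differences between days and for groups that do not overlap were also chosen after seeing the data. No paired analysis was possible because every replicate name is that of 1 mouse and none recurs across groups.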
